A study of Rattus norvegicus with 18 samples.

Results

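Chemokines and their receptors were followed in rat endothelial cells freshly taken from lung and liver and in liver cells kept in culture. The genes were all those with an array symbol of a chemokine (Cxcl, Ccl, Cx3cl or Xcl) or of a chemokine receptor (Cxcr, Ccr, Cx3cr, Xcr or Ackr). This gave 43 genes out of 11018 with a symbol, of which 29 encode ligands and 14 encode receptors, and 1 further matching symbol was not analysed here. LMEC_0h are lung microvascular endothelial cells that were never cultured (5 arrays, 18 to 22), and LSEC_0h are liver sinusoidal endothelial cells that were never cultured (5 arrays, 13 to 17). LSEC_2h are liver sinusoidal cells after 2 h on collagen-coated dishes (4 arrays, 4 to 7), and LSEC_42h are the same kind of culture after 42 h (4 arrays, 1, 2, 3 and 12). All cells had been released by enzymes, separated on a density gradient and sorted magnetically. Neither the surface marker of the sort nor the strain, sex or age of the rats is stated in the labels.

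Chemokines are small secreted or membrane-tethered proteins that guide leukocytes through G protein-coupled receptors. Endothelial cells display them on heparan sulfate at the vessel surface, where rolling leukocytes meet them and come to arrest. Atypical receptors of the Ackr group bind chemokines without G protein signalling, and several of them carry their ligands into the cell for breakdown. In the liver the sinusoidal endothelium is a known site of chemokine display and clearance, next to Kupffer cells, which secrete chemokines themselves.

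Values are the deposited log2 expression values, in which a difference of 1 is a 2-fold change. They ran from 5.11 to 13.69, and levels are compared between groups for a gene but never between genes, because each gene had its own probe set. The differences below are LMEC_0h minus LSEC_0h, LSEC_2h minus LSEC_0h, LSEC_42h minus LSEC_0h and LSEC_42h minus LSEC_2h, each with its standard error (SE) from limma. A gene was called at a Benjamini-Hochberg adjusted p under 0.05 over all 11018 genes. The first 3 comparisons share the LSEC_0h arrays, so their results are not independent of each other. Nothing in the labels ties the arrays of a group to different rats, and the p-values may therefore reflect technical spread only. A background level was set for each group from 27 measured genes of distant tissues such as lens, pancreas and testis, as the level below which 90% of their group means lay. It was 6.73 in LMEC_0h, 6.64 in LSEC_0h, 7.07 in LSEC_2h and 6.79 in LSEC_42h. Where the lower group was at that level the fold is given as "at least", and no fold is given where both groups were. Of the 11 endothelial markers measured, 11 lay above background in LMEC_0h, LSEC_0h and LSEC_2h and 10 in LSEC_42h. Against LSEC_0h, 8 of them were called lower and 2 higher in LSEC_2h (32.7% and 41.4% of all genes, median log2 difference -1.12). In LSEC_42h 9 were called lower and none higher (20.8% and 29.7% of all genes, median -0.62).

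In fresh lung cells against fresh liver cells, more of the chemokine genes were called higher than lower, while all genes leaned the other way. After 2 h of plating more chemokine genes were called higher than lower, though many by small amounts. At 42 h more of them were called lower than higher when set against 2 h. In LMEC_0h against LSEC_0h, 26 of the 43 genes were called (47.5% of all genes were), 23 higher (19.8% of all genes) and 3 lower (27.7%). Of these, 14 were at least 2-fold higher (5.90% of all genes) and 2 at least 2-fold lower (3.98%). In LSEC_2h against LSEC_0h, 37 were called (74.0% of all genes), 34 higher (41.4%) and 3 lower (32.7%), with 13 at least 2-fold higher (5.69%) and 3 at least 2-fold lower (7.26%). After quantile normalization that comparison had 26 calls, 23 higher and 3 lower, and among 27 genes of distant tissues 24 were called higher in it as well. In LSEC_42h against LSEC_0h, 23 were called (50.6% of all genes), 14 higher (29.7%) and 9 lower (20.8%), with 4 at least 2-fold higher (4.12%) and 5 at least 2-fold lower (5.39%). In LSEC_42h against LSEC_2h, 29 were called (72.1% of all genes) and 29 were lower (38.9%). No member was called higher in that comparison (33.1% of all genes, and 8.79% with at least 2-fold), although after quantile normalization 3 were called higher and 21 lower, and 14 were at least 2-fold lower (5.61%). The median log2 difference of the 43 genes was 0.31 in LMEC_0h against LSEC_0h, 0.48 in LSEC_2h against LSEC_0h, 0.03 in LSEC_42h against LSEC_0h and -0.52 in LSEC_42h against LSEC_2h. The medians of all genes in the same comparisons were -0.04, 0.08, 0.05 and -0.08.

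**Figure D1:**
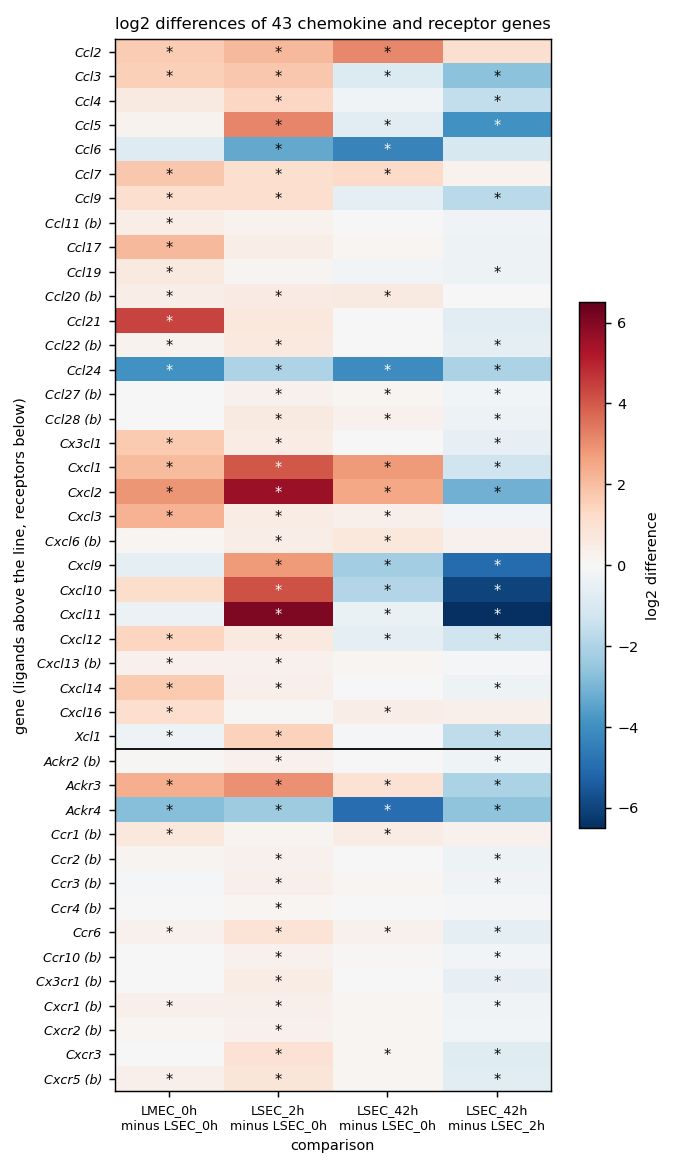
The log2 difference of each of the 43 genes (rows, ligands above the line and receptors below it) in the 4 comparisons (columns), with an asterisk where the adjusted p was under 0.05 and (b) after genes at background in all 4 groups. Red is higher and blue lower in the group named first, and the strongest colours belong to Cxcl11 in both comparisons with LSEC_2h (log2 differences 6.05 and -6.49).

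Values per array are given for 23 genes, those with a group mean above the median of all genes (7.16) and a called difference of at least 2-fold in some comparison. The other 20 were never called with a 2-fold difference, and 17 members were at background in all 4 groups.

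The sequences before the transcription start are shown for the genes on which the culture results turn: the neighbours Cxcl1 and Cxcl2, the neighbours Cxcl9, Cxcl10 and Cxcl11, and the receptor Ackr4, which went the other way. They come from RefSeq on the GRCr8 assembly, whose table held 34 of the 43 genes, and each line gives the 250 bases before the start, 5′ to 3′. Capitals mark matches, on either strand, to the NF-kB motif, to the interferon response element GAAANNGAAA (ISRE) or to the AP-1 motif TGANTCA.
Cxcl1 promoter, chr14:17479322-17479571, minus strand: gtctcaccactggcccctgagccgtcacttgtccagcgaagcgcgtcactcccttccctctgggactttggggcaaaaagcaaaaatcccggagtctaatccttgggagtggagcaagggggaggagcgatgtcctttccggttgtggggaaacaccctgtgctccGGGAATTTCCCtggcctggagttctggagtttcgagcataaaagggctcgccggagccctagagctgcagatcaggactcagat
Cxcl2 promoter, chr14:17467256-17467505, minus strand: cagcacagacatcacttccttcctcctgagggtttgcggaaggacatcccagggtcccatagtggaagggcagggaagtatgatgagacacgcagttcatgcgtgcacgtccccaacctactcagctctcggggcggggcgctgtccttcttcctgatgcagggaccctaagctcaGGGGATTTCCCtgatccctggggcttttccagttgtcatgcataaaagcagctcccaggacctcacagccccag
Cxcl9 promoter, chr14:16006916-16007165, plus strand: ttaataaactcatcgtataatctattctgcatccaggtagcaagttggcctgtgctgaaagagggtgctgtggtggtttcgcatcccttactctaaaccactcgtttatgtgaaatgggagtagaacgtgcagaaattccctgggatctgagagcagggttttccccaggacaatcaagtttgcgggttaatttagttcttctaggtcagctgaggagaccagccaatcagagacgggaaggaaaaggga
Cxcl10 promoter, chr14:15988816-15989065, plus strand: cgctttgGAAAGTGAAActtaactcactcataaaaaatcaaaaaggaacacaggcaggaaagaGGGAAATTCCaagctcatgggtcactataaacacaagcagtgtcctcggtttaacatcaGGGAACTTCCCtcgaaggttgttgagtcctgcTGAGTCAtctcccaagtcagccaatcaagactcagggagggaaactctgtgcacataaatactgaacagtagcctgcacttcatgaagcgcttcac
Cxcl11 promoter, chr14:15973478-15973727, plus strand: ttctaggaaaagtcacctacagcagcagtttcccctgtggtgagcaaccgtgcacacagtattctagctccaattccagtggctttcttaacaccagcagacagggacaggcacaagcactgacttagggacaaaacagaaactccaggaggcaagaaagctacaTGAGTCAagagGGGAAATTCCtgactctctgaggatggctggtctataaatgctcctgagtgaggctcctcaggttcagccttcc
Ackr4 promoter, chr8:113599763-113600012, minus strand: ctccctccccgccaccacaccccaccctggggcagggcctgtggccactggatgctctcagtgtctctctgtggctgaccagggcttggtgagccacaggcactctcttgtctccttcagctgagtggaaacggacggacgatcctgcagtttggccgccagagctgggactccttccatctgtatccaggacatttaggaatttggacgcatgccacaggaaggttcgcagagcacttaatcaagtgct
Cxcl1 and Cxcl2 each had an NF-kB match at 1 place, read on both strands with overlap. Cxcl10 had NF-kB matches at 2 places, an ISRE and an AP-1 match, and Cxcl11 had an NF-kB and an AP-1 match. Cxcl9 and Ackr4 held none of these letters in the window. Among all 33469 promoters of the table, 6.33% held an NF-kB match, 3.41% an ISRE match and 6.34% an AP-1 match. Among the 34 members with a promoter, 9 held an NF-kB match, 2 an ISRE match and 5 an AP-1 match. Of the 23 genes with values per array, 18 had a promoter, and the 6 of these with an NF-kB match (Cxcl1, Cxcl2, Cxcl10, Cxcl11, Ccl7 and Ccl9) were all called higher in LSEC_2h than in LSEC_0h, as 41.4% of all genes were. These 18 had been picked for a called difference, so the share of all genes is no fair standard for them. Of the 23 genes picked in this way, 17 were called higher in LSEC_2h than in LSEC_0h. The call of Ccl9 was lost without any 1 of 4 arrays, as given below. The other members with an NF-kB match, Ccl20, Ccr3 and Cxcl6, were at background in all groups. Of the other 12 with a promoter, 6 were called higher and 3 lower in that comparison. These matches describe the letters only.

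Cxcl1 and Cxcl2, which attract neutrophils through Cxcr2, lie next to each other on rat chromosome 14, with Cxcl3, of the same function, close by. Cxcl1 stood at 9.82, 11.91, 11.40, 10.77 and 12.27 in LMEC_0h and at 8.93, 9.22, 9.34, 8.83 and 9.58 in LSEC_0h, and cultured liver cells had 13.24, 13.24, 13.24 and 13.09 at 2 h and 12.49, 11.50, 11.43 and 12.31 at 42 h. The 4 groups did not overlap in the comparisons made, and the LSEC_2h arrays were the highest and the LSEC_0h arrays the lowest. Cxcl1 was 16.3-fold higher in LSEC_2h than in LSEC_0h (log2 difference 4.02, SE 0.37, adjusted p = 4.74e-08) and 6.74-fold higher in LSEC_42h than in LSEC_0h (2.75, SE 0.37, adjusted p = 6.95e-06). It was 4.16-fold higher in LMEC_0h than in LSEC_0h (2.06, SE 0.34, adjusted p = 8.63e-05). From 2 h to 42 h it fell by 1.27 on the log2 scale (SE 0.39, adjusted p = 0.00711), and the 42 h level stayed above that of fresh cells.

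Cxcl2 had the wider span. Its levels were 8.73, 10.52, 11.12, 10.14 and 11.08 in LMEC_0h, 7.62, 7.16, 7.98, 7.25 and 7.26 in LSEC_0h, 13.19, 13.09, 13.07 and 13.001 in LSEC_2h, and 10.90, 9.19, 9.27 and 10.51 in LSEC_42h. In LSEC_42h arrays 1 and 12 were above arrays 2 and 3 for both Cxcl1 and Cxcl2, and in LMEC_0h array 18 was the lowest for both. The rise of Cxcl2 in LSEC_2h over LSEC_0h was 49.7-fold (log2 difference 5.63, SE 0.42, adjusted p = 4.63e-09), and that in LSEC_42h over LSEC_0h was 5.73-fold (2.52, SE 0.42, adjusted p = 6.9e-05). LMEC_0h exceeded LSEC_0h 7.30-fold (2.87, SE 0.39, adjusted p = 9.15e-06). The fall at 42 h against 2 h was 8.67-fold (-3.12, SE 0.44, adjusted p = 7.76e-06).

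Cxcl3 was above background in lung cells alone. It read 8.53, 8.37, 8.74, 8.39 and 7.90 in LMEC_0h, but 6.15, 6.12, 6.11, 6.15 and 6.21 in LSEC_0h, 6.59, 6.57, 6.73 and 6.61 in LSEC_2h and 6.74, 6.30, 6.25 and 6.55 in LSEC_42h. The LMEC_0h arrays were above all 13 liver arrays, whose group means were at background. Cxcl3 was at least 3.36-fold higher in LMEC_0h than in LSEC_0h (log2 difference 2.24, SE 0.12, adjusted p = 3.79e-11). The small difference in LSEC_2h (0.47, SE 0.13, adjusted p = 0.0027) was lost after quantile normalization (0.28, adjusted p = 0.0563). The one in LSEC_42h (0.31, SE 0.13, adjusted p = 0.0478) was lost without LSEC_42h array 1 or 12 or any 1 of the LSEC_0h arrays (adjusted p 0.0584 to 0.182).

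Cxcl9, Cxcl10 and Cxcl11, the interferon-inducible ligands of Cxcr3, are neighbours on chromosome 14 and draw activated T cells and NK cells. All 3 were high in LSEC_2h and low in LSEC_42h. Cxcl11 read 6.07, 6.56, 6.31, 6.31 and 7.19 in LMEC_0h, 6.73, 7.10, 7.12, 6.70 and 6.67 in LSEC_0h, 13.08, 12.74, 12.80 and 13.03 in LSEC_2h, and 6.41, 6.44, 6.34 and 6.48 in LSEC_42h. The 4 arrays of LSEC_2h stood apart from the other 14, which lay near background. Cxcl11 was 66.2-fold higher in LSEC_2h than in LSEC_0h (log2 difference 6.05, SE 0.17, adjusted p = 1.3e-13), the largest difference of any of the 43 genes in that comparison. In LSEC_42h it was at least 69.7-fold lower than in LSEC_2h (-6.49, SE 0.18, adjusted p = 4.77e-14). It was lower in LSEC_42h than in LSEC_0h (-0.44, SE 0.17, adjusted p = 0.0378), a call lost without any 1 of the LSEC_42h arrays or of LSEC_0h arrays 14 and 15 (adjusted p 0.0543 to 0.0923).

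Cxcl10 read 8.16, 11.63, 9.16, 10.73 and 11.61 in LMEC_0h, 8.91, 9.58, 10.20, 7.83 and 8.94 in LSEC_0h, 13.37, 12.998, 13.30 and 13.22 in LSEC_2h, and 7.27, 7.78, 6.81 and 6.87 in LSEC_42h. The culture groups did not overlap with LSEC_0h or with each other, while the lung and liver arrays of fresh cells overlapped widely. Cxcl10 was 17.5-fold higher in LSEC_2h than in LSEC_0h (log2 difference 4.13, SE 0.59, adjusted p = 7.61e-06). In LSEC_42h it was 65.7-fold lower than in LSEC_2h (-6.04, SE 0.62, adjusted p = 2.22e-07) and 3.76-fold lower than in LSEC_0h (-1.91, SE 0.59, adjusted p = 0.0119). Between LMEC_0h and LSEC_0h it differed by 1.17 (SE 0.56, adjusted p = 0.0956). The fall in LSEC_42h against LSEC_0h was not called with the mean of macrophage markers, described below, as a covariate (-1.52, adjusted p = 0.363). The lung difference was called without LMEC_0h array 18 or 20 or LSEC_0h array 15 (adjusted p 0.00695 to 0.0494).

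Cxcl9 read 6.67, 9.63, 7.41, 8.12 and 9.30 in LMEC_0h, 9.33, 9.68, 8.45, 7.38 and 9.49 in LSEC_0h, 12.10, 11.33, 11.18 and 11.84 in LSEC_2h, and 6.47, 6.54, 6.43 and 6.98 in LSEC_42h. As with Cxcl10, the fresh arrays spread over more than 2 log2 units within each organ. Cxcl9 was 6.72-fold higher in LSEC_2h than in LSEC_0h (log2 difference 2.75, SE 0.53, adjusted p = 0.00016). In LSEC_42h it was at background and at least 4.08-fold lower than in LSEC_0h (-2.26, SE 0.53, adjusted p = 0.00164) and at least 27.4-fold lower than in LSEC_2h (-5.01, SE 0.56, adjusted p = 5.26e-07). LMEC_0h and LSEC_0h overlapped (-0.64, SE 0.50, adjusted p = 0.311), and without LMEC_0h arrays 19 and 22, the highest lung arrays for Cxcl9, the difference was called (-1.47, adjusted p = 0.0136), as it was with array weights (-1.29, adjusted p = 0.021). For Cxcl11 the organs were not called apart with all arrays weighted alike (-0.37, SE 0.16, adjusted p = 0.0651). They were with array weights (-0.49, adjusted p = 0.00538), without LMEC_0h array 22 (-0.55, adjusted p = 0.00104) and without LMEC_0h arrays 19 and 22 (-0.63, adjusted p = 0.000473). The 2 h values of Cxcl1, Cxcl2, Cxcl10 and Cxcl11 lay near the top of the scale, where the highest probe set of each LSEC_2h array read 13.58 to 13.68, and whether their signals were compressed there was not tested.

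Cxcl12, Cxcl14, Cxcl16 and Cx3cl1, which are made by resting as well as inflamed tissue, were higher in lung than in liver cells. Cxcl12, a retention signal for progenitors and lymphocytes and a ligand of Ackr3, read 8.88, 8.52, 8.50, 8.57 and 8.62 in LMEC_0h, 6.99, 7.14, 7.38, 7.42 and 7.25 in LSEC_0h, 7.92, 7.73, 8.64 and 7.19 in LSEC_2h, and 6.74, 6.42, 6.31 and 6.93 in LSEC_42h. The lung arrays did not overlap with LSEC_0h, and LSEC_2h array 6 stood above the other 2 h arrays. Cxcl12 was 2.61-fold higher in LMEC_0h than in LSEC_0h (log2 difference 1.38, SE 0.19, adjusted p = 1.15e-05). Stellate cell and mesenchymal markers moved with it: 11 of the 13 measured were higher (19.8% of all genes) and 2 lower (27.7%) in LMEC_0h. Their array means were 8.01 to 8.88 in LMEC_0h, against 6.61 to 7.04 in LSEC_0h. LMEC_0h array 18 was the highest of its group for Cxcl12 and for these markers. The part of such cells was not tested. Cxcl12 was 1.55-fold higher in LSEC_2h than in LSEC_0h (0.63, SE 0.20, adjusted p = 0.00994), with overlap. That difference was 0.375 without LSEC_2h array 6 (adjusted p = 0.0468), and it was not called with the macrophage covariate described below (0.64, adjusted p = 0.0795). Cxcl12 was at least 2.07-fold lower in LSEC_42h than in LSEC_2h (-1.27, SE 0.22, adjusted p = 5.53e-05). It was lower in LSEC_42h than in LSEC_0h (-0.64, SE 0.20, adjusted p = 0.0147), but not called so without LSEC_42h array 3 (adjusted p = 0.0545) or with that covariate (adjusted p = 0.263).

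Cxcl14, which is abundant in epithelia, read 8.29, 7.85, 7.91, 7.39 and 7.996 in LMEC_0h, 6.16, 6.19, 6.21, 6.26 and 6.22 in LSEC_0h, 6.58, 6.48, 6.62 and 6.45 in LSEC_2h, and 6.30, 6.25, 6.14 and 6.19 in LSEC_42h. Its liver group means were at background, and it was at least 2.37-fold higher in LMEC_0h than in LSEC_0h (log2 difference 1.68, SE 0.11, adjusted p = 4.69e-10). Lung epithelial markers moved with that difference: 10 of the 10 measured were higher in LMEC_0h (19.8% of all genes). Their array means were 9.71 to 11.40 in LMEC_0h, against 6.28 to 6.39 in LSEC_0h. Their part in the lung levels of these chemokines was not tested. Cxcl14 was called higher in LSEC_2h than in LSEC_0h (0.32, SE 0.11, adjusted p = 0.016), which was lost after quantile normalization (0.12, adjusted p = 0.391). It was lower in LSEC_42h than in LSEC_2h (-0.31, SE 0.12, adjusted p = 0.0272), a call lost without LSEC_42h array 3 or 12 or LSEC_2h array 4 or 6 (adjusted p 0.0532 to 0.0653).

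Cxcl16 and Cx3cl1 are the 2 ligands that are made with a membrane anchor, so that they can hold cells carrying Cxcr6 or Cx3cr1 to the vessel wall. Cxcl16 read 10.07, 9.998, 10.19, 9.77 and 10.003 in LMEC_0h, 8.84, 8.96, 9.37, 8.76 and 8.62 in LSEC_0h, 8.78, 9.21, 9.09 and 8.94 in LSEC_2h, and 9.62, 9.13, 9.19 and 9.38 in LSEC_42h. The lung arrays were the highest, and the 3 liver groups overlapped. Cxcl16 was 2.14-fold higher in LMEC_0h than in LSEC_0h (log2 difference 1.10, SE 0.13, adjusted p = 2.33e-06). Between LSEC_2h and LSEC_0h it differed by 0.09 (95% interval -0.20 to 0.39). It was 1.34-fold higher in LSEC_42h than in LSEC_0h (0.42, SE 0.14, adjusted p = 0.0195), a call lost without LSEC_42h array 1 or LSEC_0h array 17 (adjusted p 0.0552 and 0.0822). Between LSEC_42h and LSEC_2h the difference of 0.33 (adjusted p = 0.0581) was called without LSEC_42h array 2 or LSEC_2h array 5 (adjusted p 0.0378 and 0.0386).

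Cx3cl1 read 8.33, 8.77, 7.95, 8.17 and 8.67 in LMEC_0h, 6.57, 6.68, 6.70, 6.76 and 6.72 in LSEC_0h, 7.31, 7.07, 7.15 and 7.14 in LSEC_2h, and 6.75, 6.80, 6.53 and 6.497 in LSEC_42h. Its lung arrays all lay above its liver arrays, which were close to background. Cx3cl1 was 3.23-fold higher in LMEC_0h than in LSEC_0h (log2 difference 1.69, SE 0.12, adjusted p = 2.57e-09). It was 1.39-fold higher in LSEC_2h than in LSEC_0h (0.48, SE 0.13, adjusted p = 0.00289), a call lost with the macrophage covariate (0.32, adjusted p = 0.141). It was at least 1.30-fold lower in LSEC_42h than in LSEC_2h (-0.52, SE 0.14, adjusted p = 0.00251). The 27 genes of distant tissues shifted by a median of 0.34 between LSEC_2h and LSEC_0h.

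**Figure D2:**
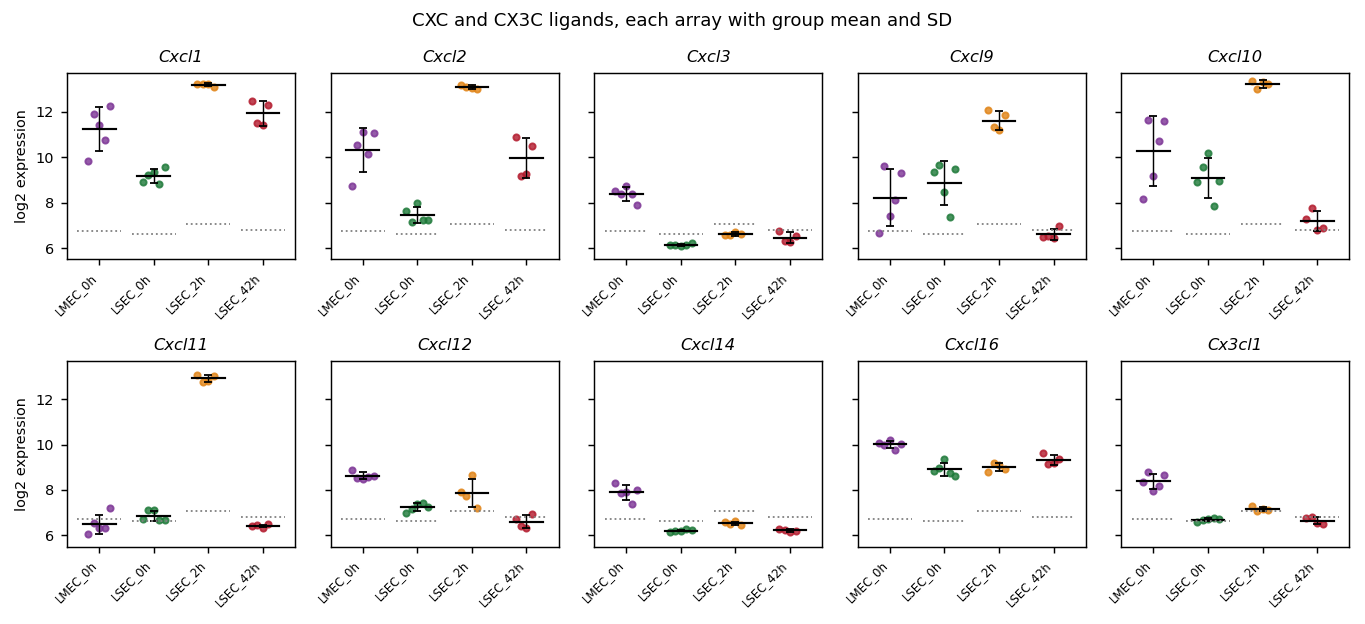
Log2 expression of 10 CXC and CX3C ligands in each of the 18 arrays, with 1 panel per gene and the groups along the horizontal axis. Points are arrays, the long bar is the group mean, whiskers are the SD and the dotted line is the background level of that group; Cxcl11 in LSEC_2h (12.74 to 13.08) stands apart from its other groups, and Cxcl3 and Cxcl14 lie above background in LMEC_0h alone.

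Ccl2, the main attractant of monocytes, was alone among members with values per array in having its highest mean of all 4 groups in LSEC_42h. Like Ccl7 (7.24) and Cxcl16 (9.33), Ccl2 had its highest mean of the liver groups there. It read 8.64, 11.21, 10.59, 10.02 and 11.85 in LMEC_0h, 9.02, 8.71, 9.16, 8.33 and 8.90 in LSEC_0h, 11.03, 10.52, 11.56 and 10.62 in LSEC_2h, and 11.83, 12.01, 11.87 and 12.10 in LSEC_42h. The 4 arrays of LSEC_42h differed by 0.13 (SD) and lay above all arrays of LSEC_0h and LSEC_2h, whereas LMEC_0h spread widely and its array 18 fell among the liver arrays. Ccl2 was 8.74-fold higher in LSEC_42h than in LSEC_0h (log2 difference 3.13, SE 0.43, adjusted p = 1.14e-05) and 4.32-fold higher in LSEC_2h than in LSEC_0h (2.11, SE 0.43, adjusted p = 0.000304). It was 3.11-fold higher in LMEC_0h than in LSEC_0h (1.64, SE 0.41, adjusted p = 0.00304), and by 0.92 on the log2 scale without LMEC_0h arrays 19 and 22 (adjusted p = 0.0371). The further difference of 1.02 between LSEC_42h and LSEC_2h (SE 0.46, adjusted p = 0.055) was called without LSEC_2h array 6 (1.23, adjusted p = 0.0343) and under other settings, such as quantile normalization (1.12, adjusted p = 0.041).

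Ccl7, which shares the receptor Ccr2 with Ccl2 and is its neighbour on chromosome 10, read 6.62, 7.99, 8.08, 7.33 and 8.56 in LMEC_0h, 6.001, 5.91, 5.97, 5.99 and 6.003 in LSEC_0h, 6.91, 6.85, 7.14 and 7.24 in LSEC_2h, and 7.44, 7.08, 6.92 and 7.51 in LSEC_42h. The LSEC_0h arrays were below the arrays of the 3 other groups. Ccl7 was at least 2.11-fold higher in LMEC_0h than in LSEC_0h (log2 difference 1.74, SE 0.25, adjusted p = 1.55e-05) and at least 1.52-fold higher in LSEC_42h than in LSEC_0h (1.27, SE 0.26, adjusted p = 0.000645). In LSEC_2h it was called higher as well (1.06, SE 0.26, adjusted p = 0.00159), but its mean there was still at background. LSEC_42h and LSEC_2h differed by 0.21 (95% interval -0.38 to 0.79).

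Ccl3, Ccl4, Ccl5 and Xcl1 are inflammatory ligands that macrophages, NK cells and T cells also secrete, and all 4 were higher in LSEC_2h than in the other liver groups. Ccl5 read 8.05, 6.70, 7.81, 7.03 and 6.92 in LMEC_0h, 6.56, 7.57, 7.32, 7.18 and 6.67 in LSEC_0h, 10.64, 10.38, 10.55 and 9.45 in LSEC_2h, and 6.40, 6.16, 6.34 and 6.30 in LSEC_42h. The LSEC_2h arrays lay far above the others, with array 7 the lowest of them. Ccl5 was 9.15-fold higher in LSEC_2h than in LSEC_0h (log2 difference 3.19, SE 0.29, adjusted p = 3.97e-08) and at least 11.0-fold lower in LSEC_42h than in LSEC_2h (-3.95, SE 0.30, adjusted p = 7.68e-09). LMEC_0h and LSEC_0h overlapped (0.24, 95% interval -0.33 to 0.81). Ccl5 was called lower in LSEC_42h than in LSEC_0h (-0.76, SE 0.29, adjusted p = 0.0346), but not without any 1 of the LSEC_42h arrays or of LSEC_0h arrays 14, 15 and 16 (adjusted p 0.0526 to 0.0876).

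Xcl1, which attracts cross-presenting dendritic cells, read 6.05, 5.91, 6.06, 6.04 and 5.97 in LMEC_0h, 6.11, 6.43, 6.49, 6.20 and 6.37 in LSEC_0h, 8.06, 7.88, 8.11 and 7.31 in LSEC_2h, and 6.05, 6.18, 6.21 and 6.30 in LSEC_42h. It was above background in LSEC_2h alone, where array 7 was again the lowest. Xcl1 was at least 2.30-fold higher in LSEC_2h than in LSEC_0h (log2 difference 1.52, SE 0.12, adjusted p = 1.3e-08) and at least 2.08-fold lower in LSEC_42h than in LSEC_2h (-1.66, SE 0.13, adjusted p = 1.02e-08). The call between LMEC_0h and LSEC_0h (-0.31, adjusted p = 0.0334), both at background, was lost without LMEC_0h array 19 or 22 or LSEC_0h array 14, 15 or 17 (adjusted p 0.0586 to 0.0825). Lymphocyte markers moved with Ccl5 and Xcl1. Of the 17 T, NK and B cell markers measured, 10 were higher (41.4% of all genes) and 1 lower (32.7%) in LSEC_2h than in LSEC_0h. Of the 27 genes of distant tissues 24 were called higher there too. At least 2-fold higher were 6 of the 17 markers (5.69% of all genes) and 1 of the distant tissue genes. The array means of the markers were 7.21 to 7.65 in LSEC_2h and 6.46 to 6.59 in LSEC_0h. LSEC_2h array 7 had the lowest mean of the 4. Of the 17 markers, 7 lay above background in LSEC_2h and 3 in LSEC_0h. The cytotoxic granule gene Gzma was among those that rose (log2 difference 3.97, SE 0.20). Among those at background in LSEC_2h were the T cell genes Cd3d and Cd3g and the B cell genes Ms4a1 and Cd79b. These are examples from the list and do not tell which lymphocytes were present. The part of such cells in the 2 h levels of Ccl5 and Xcl1 was not tested.

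Ccl3 read 8.67, 9.27, 10.04, 9.06 and 9.83 in LMEC_0h, 8.0002, 7.46, 8.95, 7.51 and 7.11 in LSEC_0h, 9.20, 10.34, 9.70 and 9.09 in LSEC_2h, and 6.99, 6.95, 6.99 and 6.64 in LSEC_42h. LSEC_2h lay above LSEC_0h in every array, and LMEC_0h overlapped with LSEC_0h through LSEC_0h array 15. Ccl3 was 2.97-fold higher in LMEC_0h than in LSEC_0h (log2 difference 1.57, SE 0.32, adjusted p = 0.000577) and 3.42-fold higher in LSEC_2h than in LSEC_0h (1.77, SE 0.34, adjusted p = 0.000156). It was 6.44-fold lower in LSEC_42h than in LSEC_2h (-2.69, SE 0.36, adjusted p = 4.33e-06). The difference between LSEC_42h and LSEC_0h (-0.91, SE 0.34, adjusted p = 0.0334) was not called without any 1 of the LSEC_42h arrays or of LSEC_0h arrays 13 and 15 (adjusted p 0.0523 to 0.0929).

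Ccl4 read 7.28, 7.67, 8.40, 7.57 and 8.18 in LMEC_0h, 7.15, 7.27, 8.21, 6.90 and 6.78 in LSEC_0h, 8.34, 9.09, 8.72 and 8.33 in LSEC_2h, and 7.12, 6.99, 6.98 and 6.95 in LSEC_42h. Its arrays kept the pattern of Ccl3, its neighbour on chromosome 10, with array 15 the highest of LSEC_0h. Ccl4 was 2.57-fold higher in LSEC_2h than in LSEC_0h (log2 difference 1.36, SE 0.26, adjusted p = 0.00015) and 3.05-fold lower in LSEC_42h than in LSEC_2h (-1.61, SE 0.27, adjusted p = 5.68e-05). LMEC_0h and LSEC_0h were not called apart (0.56, SE 0.24, adjusted p = 0.0692). They were without LSEC_0h array 15 or LMEC_0h array 18 (adjusted p 0.00389 and 0.0302) and with the macrophage covariate (1.47, adjusted p = 2.84e-05). The difference of Ccl4 between LSEC_42h and LSEC_0h was -0.25 (95% interval -0.80 to 0.30).

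Within LSEC_0h the array with the highest Ccl3 and Ccl4 also had the highest macrophage markers, whereas between groups the markers were lower in LMEC_0h and LSEC_2h, where Ccl3 was higher than in LSEC_0h. The mean of the 12 macrophage and Kupffer cell markers measured was 7.08 to 8.29 in the LMEC_0h arrays, 7.82 to 10.23 in LSEC_0h, 7.16 to 7.69 in LSEC_2h and 6.49 to 6.88 in LSEC_42h, and LSEC_0h array 15 had the highest of all. The culture arrays did not overlap with LSEC_0h in that mean, so a fit with it extends 1 common slope beyond values seen in both. Calls kept, lost or turned in such a fit do not give the part of macrophages, which was not tested. With that mean as a covariate, Ccl3 and Ccl4 remained called higher in LSEC_2h than in LSEC_0h (log2 differences 3.07 and 2.30). In that fit the sign of LSEC_42h against LSEC_0h turned for both, to 1.001 for Ccl3 (adjusted p = 0.0259) and to 1.14 for Ccl4 (adjusted p = 0.00562). Other calls lost with the covariate were those of Cxcl3 (adjusted p = 0.353), Cxcl11 (0.628) and Ccl5 (0.786) in LSEC_42h against LSEC_0h. Also lost were those of Cxcl14 in LSEC_2h against LSEC_0h (adjusted p = 0.1) and in LSEC_42h against LSEC_2h (0.0526), and of Xcl1 in LMEC_0h against LSEC_0h (0.323). Calls were gained for Cxcl16 in LSEC_2h against LSEC_0h (adjusted p = 0.0212) and in LSEC_42h against LSEC_2h (0.00309), and for Ccl2 in LSEC_42h against LSEC_2h (0.0456). In such bulk samples fewer cells of a type and less RNA per cell cannot be told apart.

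Ccl6 and Ccl9 are rodent ligands of the macrophage receptor Ccr1, and Ccl24 attracts eosinophils through Ccr3. Ccl6 read 9.32, 9.96, 11.28, 10.02 and 10.85 in LMEC_0h, 11.63, 10.89, 12.52, 10.65 and 9.87 in LSEC_0h, 7.58, 8.63, 8.01 and 6.996 in LSEC_2h, and 6.41, 6.54, 7.37 and 6.72 in LSEC_42h. Fresh cells of both organs were high and overlapped, and both culture groups lay below every array of fresh liver cells. Ccl6 was 9.92-fold lower in LSEC_2h than in LSEC_0h (log2 difference -3.31, SE 0.47, adjusted p = 7.13e-06) and at least 18.1-fold lower in LSEC_42h than in LSEC_0h (-4.35, SE 0.47, adjusted p = 7.17e-07). The 2 culture groups overlapped (-1.04, SE 0.50, adjusted p = 0.068), and were called apart without LSEC_42h array 3 or LSEC_2h array 7 (adjusted p 0.0353 and 0.0489) and with arrays centred on their medians (adjusted p = 0.0496).

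Within groups Ccl6 ran broadly with the macrophage markers. Arrays 15 and 17 were its highest and lowest in LSEC_0h, as they were for the marker mean (10.23 and 7.82). Array 20 was the highest of LMEC_0h for both. The lowest arrays for Ccl6 and for the markers were 18 and 19 in LMEC_0h and 1 and 12 in LSEC_42h. Between groups, LMEC_0h and LSEC_2h overlapped in the marker mean (7.08 to 8.29 and 7.16 to 7.69). Ccl6 did not overlap between them (9.32 to 11.28 and 6.996 to 8.63). Of the 12 markers measured, 7 were lower (32.7% of all genes) and 2 higher (41.4%) in LSEC_2h than in LSEC_0h. In LSEC_42h 9 were lower than in LSEC_0h (20.8% of all genes). The Kupffer cell lectin Clec4f averaged 6.57 in LMEC_0h, 10.68 in LSEC_0h, 7.60 in LSEC_2h and 6.73 in LSEC_42h. With the marker mean as a covariate, Ccl6 was still called lower in LSEC_2h (-1.49, adjusted p = 0.00099) and in LSEC_42h (-1.67, adjusted p = 0.00665) than in LSEC_0h, by less than without it. In that fit the organ difference turned from -0.83 (adjusted p = 0.138) to 0.94 (adjusted p = 0.0261), and without LSEC_0h array 17 it was called in the other direction (-1.14, adjusted p = 0.0395).

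Ccl24 set fresh liver cells apart from every other group. It read 6.11, 6.28, 7.05, 6.42 and 6.30 in LMEC_0h, 10.76, 10.47, 10.28, 10.11 and 10.33 in LSEC_0h, 8.72, 8.23, 8.77 and 7.74 in LSEC_2h, and 6.27, 6.25, 6.38 and 6.39 in LSEC_42h. The groups compared did not overlap, except that LMEC_0h and LSEC_42h, not compared here, were both at background. Ccl24 was at least 12.1-fold lower in LMEC_0h than in LSEC_0h (log2 difference -3.96, SE 0.19, adjusted p = 8.6e-12) and 4.07-fold lower in LSEC_2h than in LSEC_0h (-2.03, SE 0.20, adjusted p = 1.29e-07). It was at least 12.1-fold lower in LSEC_42h than in LSEC_0h (-4.07, SE 0.20, adjusted p = 7.48e-11) and at least 2.98-fold lower in LSEC_42h than in LSEC_2h (-2.04, SE 0.21, adjusted p = 2.35e-07). With the macrophage mean as a covariate, the differences of LMEC_0h, LSEC_2h and LSEC_42h from LSEC_0h were -3.69, -1.75 and -3.67, each called. The LSEC_0h arrays differed by 0.24 (SD) for Ccl24, against 1.01 for Ccl6. The part of macrophages in the level of Ccl24 was not tested.

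Ccl9 read 6.54, 7.69, 8.81, 7.47 and 8.57 in LMEC_0h, 6.98, 6.17, 7.02, 6.96 and 6.37 in LSEC_0h, 6.92, 7.89, 9.36 and 7.03 in LSEC_2h, and 6.02, 5.98, 6.23 and 5.99 in LSEC_42h. Its spread within LMEC_0h and LSEC_2h was wide, and both groups overlapped with LSEC_0h. Ccl9 was called higher in LMEC_0h (log2 difference 1.12, SE 0.43, adjusted p = 0.0391) and in LSEC_2h (1.10, SE 0.45, adjusted p = 0.036) than in LSEC_0h. The lung call was lost, among other settings, without LSEC_0h array 14 or 17 or LMEC_0h array 19, 20 or 22 (adjusted p 0.0554 to 0.11). The 2 h call was lost without LSEC_2h array 5 or 6 or LSEC_0h array 14 or 17 (adjusted p 0.0687 to 0.187), and without array 6 the difference was 0.58. LSEC_2h array 6, the highest for Ccl9 and Cxcl12, also had the highest hepatocyte marker mean of the 2 h arrays, at 9.997 against 6.87 to 7.46 in the other 3. The LSEC_0h arrays had hepatocyte means of 8.05 to 9.47 as well, with Ccl9 at 6.17 to 7.02. The stellate cell and mesenchymal mean of LSEC_2h array 6 was the highest of the 2 h arrays too, at 7.96 against 7.08 to 7.29. Of those 13 markers 9 were called higher (41.4% of all genes) and 1 lower (32.7%) in LSEC_2h than in LSEC_0h. The part of such cells was not tested. Ccl9 was at least 2.02-fold lower in LSEC_42h than in LSEC_2h (-1.74, SE 0.48, adjusted p = 0.00347).

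Ccl17 and Ccl21 were above background in lung cells alone. Ccl21, which recruits lymphocytes and dendritic cells through Ccr7 and is made by lymphatic endothelium, read 8.87, 11.22, 10.10, 11.24 and 11.57 in LMEC_0h, 6.18, 6.21, 6.20, 6.35 and 6.20 in LSEC_0h, 6.67, 6.52, 7.56 and 6.88 in LSEC_2h, and 6.26, 6.14, 6.21 and 6.32 in LSEC_42h. Every lung array lay above every liver array. Ccl21 was at least 15.5-fold higher in LMEC_0h than in LSEC_0h (log2 difference 4.37, SE 0.36, adjusted p = 1.72e-08), the largest rise of the 43 genes in that comparison. LSEC_2h exceeded LSEC_0h by 0.68 (SE 0.38, adjusted p = 0.119), both at background, and this was called when only these groups entered the fit (adjusted p = 0.0042).

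Of the 7 mesothelial and lymphatic markers measured, 2 were higher in LMEC_0h than in LSEC_0h (19.8% of all genes). They were podoplanin (Pdpn, log2 difference 4.03, SE 0.31) and keratin 19 (Krt19, 2.84, SE 0.36), both also known from lung epithelium. The 2 called lower were Flt4 and Lyve1 (-3.09 and -1.48), as 27.7% of all genes were. Their differences depend on the LSEC_0h level too and do not tell whether lymphatic cells were among the lung cells. Prox1, the lymphatic transcription factor, averaged 5.99 in LMEC_0h, at background. The part of lymphatic and other such cells in the lung level of Ccl21 was not tested. Ccl17, a ligand of Ccr4 on T cells, read 7.18, 8.02, 9.55, 8.36 and 8.64 in LMEC_0h, 6.19, 6.26, 6.23, 6.36 and 6.29 in LSEC_0h, 6.65, 6.94, 6.57 and 6.68 in LSEC_2h, and 6.43, 6.49, 6.19 and 6.37 in LSEC_42h. The 5 lung arrays exceeded the 13 liver arrays, and array 20, the highest, also had the highest macrophage and lung epithelial means of LMEC_0h (8.29 and 11.40). Array 20 was also the highest of LMEC_0h for neutrophil and monocyte (7.75), mast cell and basophil (6.76) and mesothelial and lymphatic markers (8.86). The part of such cells in the lung level of Ccl17 was not tested. Ccl17 was at least 3.27-fold higher in LMEC_0h than in LSEC_0h (2.08, SE 0.27, adjusted p = 5.13e-06). Between LSEC_2h and LSEC_0h it differed by 0.44 (SE 0.29, adjusted p = 0.171), a difference called with array weights (adjusted p = 0.0372) and with only those groups in the fit (adjusted p = 0.000227).

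**Figure D3:**
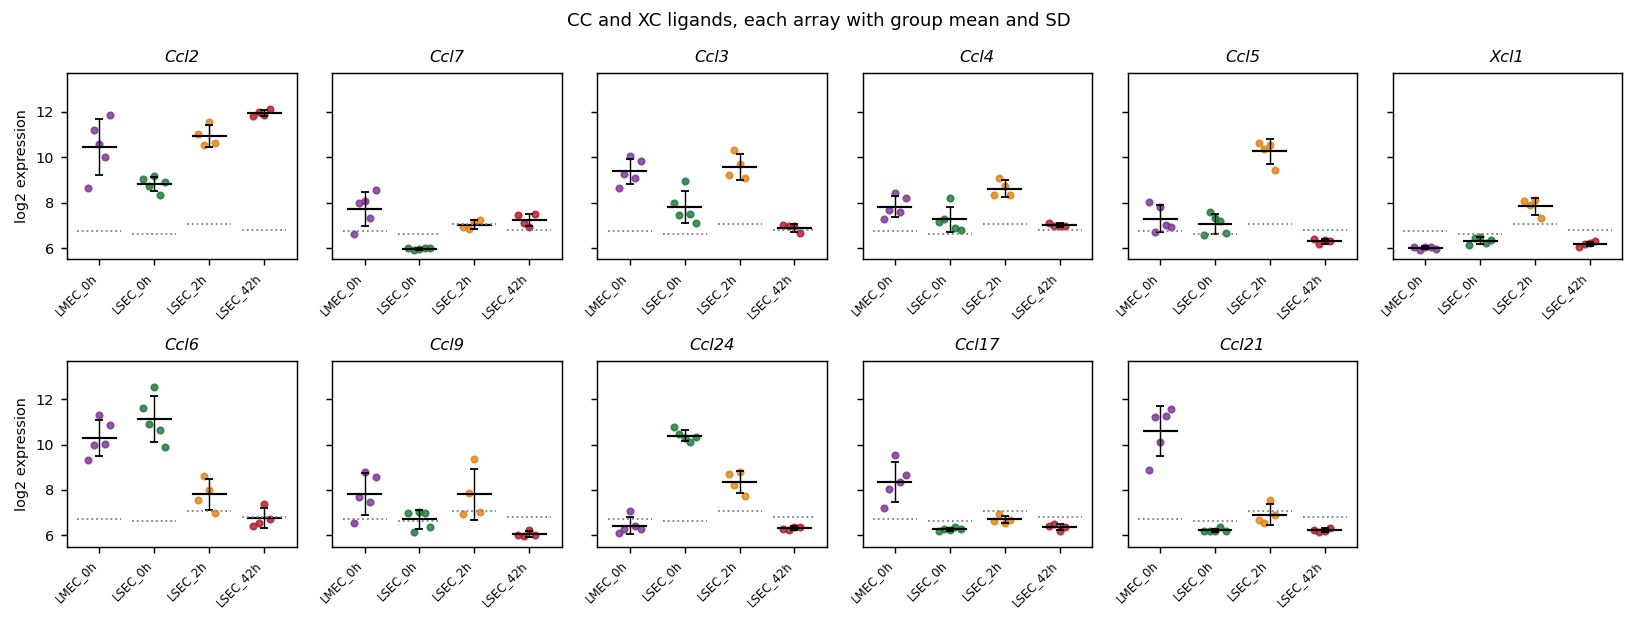
Log2 expression of 11 CC and XC ligands in each of the 18 arrays, with 1 panel per gene and the groups along the horizontal axis. Points are arrays, the long bar is the group mean, whiskers are the SD and the dotted line is the background level; Ccl24 is high in LSEC_0h (10.11 to 10.76), Ccl21 in LMEC_0h (8.87 to 11.57), and the LSEC_42h arrays of Ccl2 lie between 11.83 and 12.10.

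The atypical receptors Ackr3 and Ackr4 were the receptors with the largest differences, and against LSEC_0h they moved in opposite directions. Ackr4, which removes Ccl19 and Ccl21, read 8.37, 8.30, 8.42, 8.84 and 7.73 in LMEC_0h, 11.15, 10.94, 11.02, 11.38 and 10.90 in LSEC_0h, 9.23, 8.39, 9.38 and 8.02 in LSEC_2h, and 6.17, 6.22, 6.08 and 6.14 in LSEC_42h. Fresh liver cells were the highest in every array, and the LSEC_42h arrays were the lowest and at background. Ackr4 was 6.71-fold lower in LMEC_0h than in LSEC_0h (log2 difference -2.75, SE 0.22, adjusted p = 1.41e-08) and 5.01-fold lower in LSEC_2h than in LSEC_0h (-2.32, SE 0.24, adjusted p = 1.85e-07). It was at least 19.6-fold lower in LSEC_42h than in LSEC_0h (-4.93, SE 0.24, adjusted p = 6.97e-11) and at least 3.91-fold lower in LSEC_42h than in LSEC_2h (-2.60, SE 0.25, adjusted p = 1.03e-07). With the macrophage mean as a covariate, the differences of LMEC_0h, LSEC_2h and LSEC_42h from LSEC_0h were -2.72, -2.29 and -4.88. Of its ligands, Ccl21 was at background in the 3 liver groups, and Ccl19 was above it in LMEC_0h alone, at a mean of 6.91.

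Ackr3, which takes up Cxcl11 and Cxcl12, read 11.50, 12.02, 11.35, 11.90 and 12.09 in LMEC_0h, 9.26, 9.01, 9.34, 9.84 and 9.49 in LSEC_0h, 12.37, 12.50, 12.14 and 12.51 in LSEC_2h, and 9.40, 9.97, 10.68 and 11.26 in LSEC_42h. LMEC_0h and LSEC_2h lay above LSEC_0h without overlap, and the LSEC_42h arrays spread from the level of fresh liver cells upward. Ackr3 was 5.21-fold higher in LMEC_0h than in LSEC_0h (log2 difference 2.38, SE 0.26, adjusted p = 6.9e-07) and 7.94-fold higher in LSEC_2h than in LSEC_0h (2.99, SE 0.28, adjusted p = 6.17e-08). In LSEC_42h it was 4.15-fold lower than in LSEC_2h (-2.05, SE 0.29, adjusted p = 9.15e-06) and 1.91-fold higher than in LSEC_0h (0.94, SE 0.28, adjusted p = 0.0094). That last call was lost with the macrophage mean as a covariate (0.61, adjusted p = 0.448).

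A separate list held 9 measured genes of other chemokine-binding or chemokine-like proteins. Of these, 5 were higher and 2 lower in LMEC_0h than in LSEC_0h, 5 were higher and 1 lower in LSEC_2h than in LSEC_0h, 2 were higher and 5 lower in LSEC_42h than in LSEC_0h, and 1 was higher and 7 lower in LSEC_42h than in LSEC_2h. The called shares of all genes in these comparisons were 47.5%, 74.0%, 50.6% and 72.1%. In LSEC_2h against LSEC_0h the 6 calls of the list were below that share. Gpr182, an endothelial receptor reported to scavenge several chemokines, was lower in LSEC_2h than in LSEC_0h, as Ackr4 was, and stood higher again in LSEC_42h. Its means were 9.45 ± 0.36 in LMEC_0h, 11.21 ± 0.13 in LSEC_0h, 9.24 ± 0.46 in LSEC_2h and 10.68 ± 0.33 in LSEC_42h (SD, n = 5, 5, 4 and 4). It was lower in LSEC_2h than in LSEC_0h (log2 difference -1.96, SE 0.21, adjusted p = 2.66e-07) and higher in LSEC_42h than in LSEC_2h (1.43, SE 0.22, adjusted p = 1.87e-05). Ccrl2, which binds chemerin, rose in LSEC_2h by a log2 difference of 1.87 (SE 0.19, adjusted p = 1.34e-07) and was lower in LSEC_42h than in LSEC_0h (-1.13, SE 0.19, adjusted p = 6.9e-05). Cd74, a receptor for the chemokine-like factor Mif, differed from LSEC_0h by 1.56 in LMEC_0h (SE 0.44, adjusted p = 0.00721) and by -3.29 in LSEC_42h (SE 0.47, adjusted p = 1.45e-05).

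**Figure D4:**
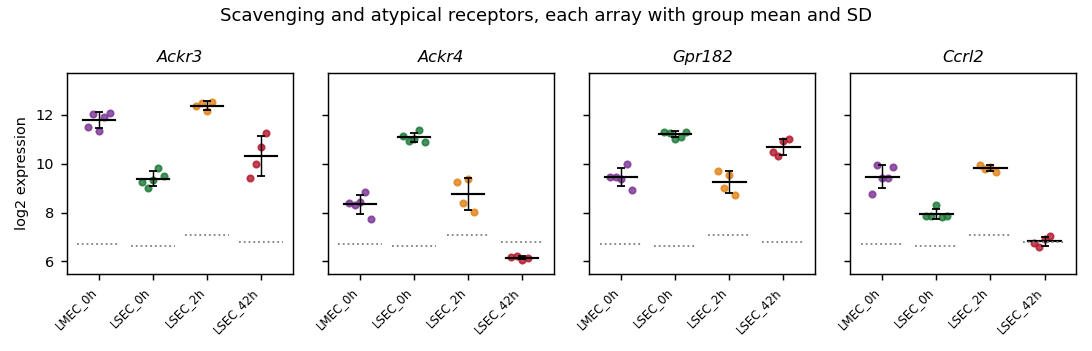
Log2 expression of Ackr3, Ackr4, Gpr182 and Ccrl2 in each of the 18 arrays, with 1 panel per gene and the groups along the horizontal axis. Points are arrays, the long bar is the group mean, whiskers are the SD and the dotted line is the background level; Ackr4 in LSEC_42h (6.08 to 6.22) lies below its other groups.

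The 11 signalling receptors of the set and Ackr2 were low. Cxcr3, the receptor of Cxcl9, Cxcl10 and Cxcl11, averaged 6.26 in LMEC_0h, 6.26 in LSEC_0h, 7.18 in LSEC_2h and 6.41 in LSEC_42h, and Ccr6, the receptor of Ccl20, averaged 6.51, 6.25, 7.14 and 6.54 in the same groups. These were the signalling receptors above background in any group, in LSEC_2h alone, where they exceeded LSEC_0h by 0.92 and 0.90 on the log2 scale. Lymphocyte markers were higher in LSEC_2h too, as given above, and their part was not tested. Among the receptors at background in all groups were Cxcr1 and Cxcr2 for Cxcl1 and Cxcl2, Ccr2 for Ccl2, Ccr1 and Ccr3 for Ccl6 and Ccl24, and Cx3cr1 for Cx3cl1.

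The 20 members without values per array were called higher 9 times in LMEC_0h against LSEC_0h (19.8% of all genes were). Against LSEC_0h they were called higher 17 times in LSEC_2h (41.4% of all genes) and 7 times in LSEC_42h (29.7%). None was called lower in any of these (27.7%, 32.7% and 20.8% of all genes). In LSEC_42h against LSEC_2h 13 were called lower (38.9% of all genes). The median difference of the 20 members between LSEC_2h and LSEC_0h was 0.31. The 27 genes of distant tissues shifted by a median of 0.34 in the same comparison, with 24 called higher, and by -0.24 between LSEC_42h and LSEC_2h, with 24 called lower. The median of the 20 members between LSEC_42h and LSEC_2h was -0.23, so in both comparisons it lay near that of the distant tissue genes. Single members shifted by more than the median. Cxcr3 averaged 6.26 in LSEC_0h and 7.18 in LSEC_2h, and Ccr6 averaged 6.25 and 7.14. Of the distant tissue genes, 1 was called at least 2-fold higher in LSEC_2h than in LSEC_0h. In LMEC_0h against LSEC_0h 4 of the distant tissue genes were called higher and 2 lower, with a median of -0.01. The 24 spiked poly-A control probe sets also read higher in cultured than in fresh samples, at 7.62 to 8.37 in LSEC_2h and 7.68 to 7.86 in LSEC_42h, against 5.72 to 5.74 in LSEC_0h. The 3′ minus 5′ difference of the actin probe sets, a sign of RNA or labelling quality, was 1.63 to 1.69 in LSEC_2h and 1.81 to 1.89 in LSEC_42h, against 0.91 to 1.28 in LSEC_0h. LMEC_0h read 5.66 to 5.68 for the spikes and 0.97 to 1.34 for actin, so both split fresh from cultured arrays without overlap. Their part in any difference between cultured and fresh cells, large or small, cannot be told apart from culture and was not tested. Ccl19, Ccl20 and Cxcl6, whose names belong to homing, mucosal and neutrophil chemokines, stayed within 1 log2 unit of LSEC_0h in all groups.

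The pathways that are known to induce chemokine genes were examined through lists, chosen with results of these data known, so their counts are a description. Of the 25 NF-kB pathway genes measured, 20 were higher and 2 lower in LMEC_0h than in LSEC_0h (median 1.15), and 20 were higher and 1 lower in LSEC_2h than in LSEC_0h (median 1.52). Of all genes, 19.8% were higher in LMEC_0h and 41.4% in LSEC_2h. In LSEC_42h against LSEC_0h 6 were higher and 5 lower (29.7% and 20.8% of all genes, list median 0.16). Against LSEC_2h 1 was higher and 18 lower in LSEC_42h (33.1% and 38.9% of all genes, list median -1.37). The prostaglandin synthase Ptgs2 and the adhesion molecule Icam1 rose by 3.62 (SE 0.54, adjusted p = 1.27e-05) and 2.82 (SE 0.26, adjusted p = 5.55e-08) in LSEC_2h. The cytokine Il6 and the adhesion molecule Sele were higher in LMEC_0h by 3.81 (SE 0.41, adjusted p = 5.17e-07) and 3.11 (SE 0.36, adjusted p = 1.15e-06). Across the LMEC_0h arrays the list mean ran from 8.50 in array 18, the array with the lowest Cxcl1, Cxcl2 and Ccl2, to 9.99 in array 22, the array with the highest Cxcl1 and Ccl2. In LSEC_0h it stayed between 7.89 and 8.01.

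Of the 22 interferon pathway genes measured, 5 were higher and 4 lower in LMEC_0h than in LSEC_0h (19.8% and 27.7% of all genes). In LSEC_2h 15 were higher and 3 lower than in LSEC_0h (41.4% and 32.7% of all genes, list median 0.56). In LSEC_42h 3 were higher and 14 lower than in LSEC_0h (29.7% and 20.8% of all genes, list median -1.07). Against LSEC_2h 3 were higher and 17 lower in LSEC_42h (33.1% and 38.9% of all genes, list median -1.19). The antiviral genes Oasl and Rsad2 rose by 3.29 (SE 0.27, adjusted p = 1.67e-08) and 2.48 (SE 0.52, adjusted p = 0.000379) in LSEC_2h. The ubiquitin-like Isg15 and the transcription factor Irf7 were lower in LSEC_42h than in LSEC_0h, with log2 differences of -2.45 (SE 0.32) and -2.51 (SE 0.42), as Cxcl9 and Cxcl10 were. Irf1, which acts on the Cxcr3 ligand genes, differed from LSEC_0h by 1.41 in LMEC_0h (SE 0.17) and by -1.99 in LSEC_42h (SE 0.18).

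**Figure D5:**
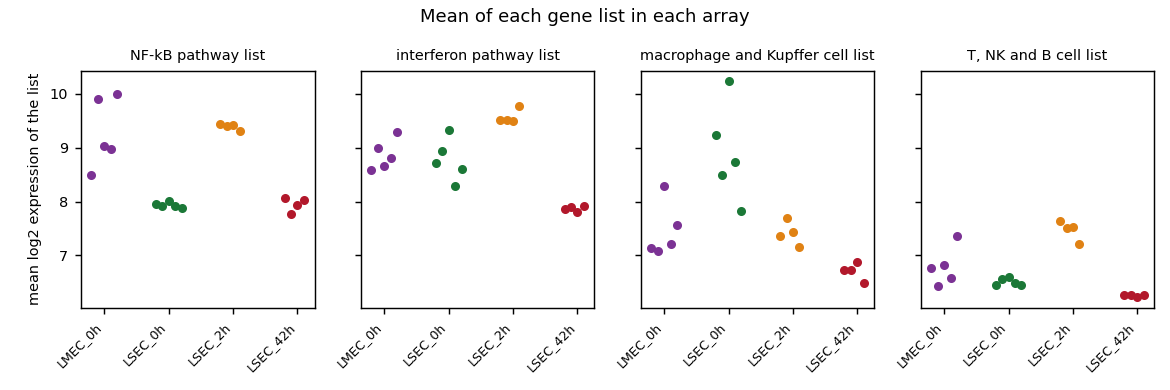
Mean log2 expression of 4 gene lists in each of the 18 arrays, with 1 panel per list, the groups along the horizontal axis and each point 1 array. The NF-kB mean spans 8.50 to 9.99 in LMEC_0h and 7.89 to 8.01 in LSEC_0h, the macrophage mean is highest in LSEC_0h (7.82 to 10.23), and the lymphocyte mean is 7.21 to 7.65 in LSEC_2h.

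Chemokine receptor signalling genes moved both ways. Of 20 measured, 6 were higher and 4 lower in LMEC_0h than in LSEC_0h, 8 were higher and 9 lower in LSEC_2h than in LSEC_0h, 3 were higher and 6 lower in LSEC_42h than in LSEC_0h, and 10 were higher and 10 lower in LSEC_42h than in LSEC_2h. The called shares of all genes in these comparisons were 47.5%, 74.0%, 50.6% and 72.1%, and the list lay near them in the first 3. Rgs1 and Rgs2, which shut off G protein signals, rose in LSEC_2h by 2.99 (SE 0.37, adjusted p = 1.62e-06) and 1.52 (SE 0.16, adjusted p = 2.64e-07), and their log2 differences between LSEC_42h and LSEC_2h were -3.51 and -3.92. The inhibitory G protein subunit Gnai3 rose by 1.41 (SE 0.17) in LSEC_2h, and the subunit Gnb2 fell by 1.40 (SE 0.10).

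Of 25 measured genes for chemokine display and cleavage, 11 were higher and 6 lower in LMEC_0h than in LSEC_0h, 10 were higher and 6 lower in LSEC_2h than in LSEC_0h, 3 were higher and 6 lower in LSEC_42h than in LSEC_0h, and 3 were higher and 9 lower in LSEC_42h than in LSEC_2h. In LSEC_2h against LSEC_0h these counts were at or below the shares of all genes (41.4% higher and 32.7% lower). Of all genes, 19.8% were higher and 27.7% lower in LMEC_0h than in LSEC_0h. In LSEC_42h 9 of the list were called against LSEC_0h and 12 against LSEC_2h, below the 50.6% and 72.1% of all genes. Dpp4, the peptidase that trims and inactivates Cxcl9, Cxcl10 and Cxcl11, averaged 10.25 in LMEC_0h, 11.65 in LSEC_0h, 10.13 in LSEC_2h and 8.07 in LSEC_42h. It was lower in LSEC_42h than in LSEC_0h (log2 difference -3.58, SE 0.20, adjusted p = 3.32e-10). Heparanase (Hpse), which cuts heparan sulfate chains, differed from LSEC_0h by -3.01 in LMEC_0h (SE 0.19, adjusted p = 4.15e-10) and by -3.04 in LSEC_42h (SE 0.20, adjusted p = 2.1e-09). The heparan sulfate carriers Sdc4 and Gpc3 were 2.65 (SE 0.31) and 3.58 (SE 0.17) higher in LMEC_0h, and Sdc4 rose by 1.33 (SE 0.33, adjusted p = 0.00147) in LSEC_2h.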

How the data were processed

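RNA of 18 samples had been labelled with biotin as cRNA and hybridised to 18 Affymetrix rat arrays, per the labels' protocols. As deposited, the values are on the log2 scale with 1 probe set for each Entrez gene; how the authors corrected, normalized and summarised them is not stated in the labels. The array medians were nearly equal. Of 11484 rows, 57 are controls and 11427 are gene probe sets, of which 11018 have 1 symbol in the platform annotation, which can be old, and 409 have none. The number of arrays limits the precision. The highest correlation between 2 arrays was 0.994, so that no array was taken for a copy of another.

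The 4 comparisons were tested with limma (version 3.58.1, R 4.3.3), using lmFit with 1 mean per group over all 18 arrays and eBayes with an intensity trend, two-sided, with Benjamini-Hochberg adjustment over 11018 genes. A call is an adjusted p under 0.05. The procedure was tested on simulated data. Intervals are limma's at 95%. Members and lists were chosen with earlier results of these data known, and the background level (90 percent quantile of the means of 27 genes of distant tissues) was chosen after values had been seen. Values per array are given for members whose highest group mean exceeds the median of all genes (7.16) and that are called with at least 2-fold in some comparison. Up to 4 called genes per comparison with the largest differences may be named from each pathway list. Marker genes of other cell types are named to describe what else moved.

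Alternatives were quantile normalization, centring on array medians, leaving out dim genes, fitting only the groups compared, a fold of 1.5 in place of 0 in the test, no intensity trend, arrays weighted by quality, unnamed probe sets added, arrays left out, and the mean of macrophage markers as a covariate. Promoter sequences were read from RefSeq (GRCr8) and motifs were searched on both strands with Python 3.11.15.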

Additional observations from a re-analysis of the deposited data

Results flagged for a closer look

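Single arrays stood apart from the others of their group for 3 members. Ccl21 read 6.35 in LSEC_0h array 16, and the nearest of the other LSEC_0h arrays was 6.21, all at background. Ccl3 read 6.64 in LSEC_42h array 12, below the nearest LSEC_42h array at 6.95. Cxcl1 read 13.09 in LSEC_2h array 7, below the nearest LSEC_2h array at 13.24. Each was picked because the gap to its neighbour took up most of the range of its group. These were 3 of 92 groups of arrays looked at, and chance alone gives about 1 in 20, or 4.6 groups.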

How the results depend on the processing

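Counts of called genes among the 43 held within 1.5 times under most settings. With dim genes left out, 23 members were tested and 17 were called in LMEC_0h against LSEC_0h, 20 in LSEC_2h against LSEC_0h and 16 in LSEC_42h against LSEC_2h, fewer because fewer were tested. Against a fold of 1.5, 14 were called in LMEC_0h and 17 in LSEC_2h when set against LSEC_0h, while LSEC_42h had 7 against LSEC_0h and 13 against LSEC_2h. With the macrophage covariate 12 were called in LSEC_42h against LSEC_0h, and 3 differences turned sign and were called: Ccl6 in LMEC_0h against LSEC_0h (0.94), and Ccl3 (1.001) and Ccl4 (1.14) in LSEC_42h against LSEC_0h. In the last comparison Ccl9 (0.74) and Ccl21 (-0.14) turned sign too, uncalled in either fit. The cause was not tested. Leaving out 1 array gave 24 to 28, 34 to 36, 18 to 21 and 27 to 31 calls in the same order of comparisons as the fold test. Among the 23 genes with values per array, 15 of 17, 15 of 20, 8 of 16 and 15 of 16 calls were kept under every alternative run except the fold test. Quantile normalization gave 26 calls in LSEC_2h against LSEC_0h and 24 in LSEC_42h against LSEC_2h. No paired analysis was possible because the groups compared share no replicate numbers. Signal near background limits the low members, and 17 members lay there in all groups.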
